A study of Mus musculus with 10 samples.

Results

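Hair keratins and keratin-associated proteins are the structural proteins of the hair shaft and its sheath, and 75 of the 24358 gene symbols measured in mouse skin belong to them. The members were chosen by name. They are the 53 symbols that begin with Krtap and 22 keratin genes (Krt25 to Krt28, Krt31, Krt32, Krt33a, Krt33b, Krt34 to Krt36, Krt71 to Krt75 and Krt81 to Krt86). RNA was sequenced from 10 full-thickness biopsies of dorsal skin from 5 C57Bl/6 mice, 1 lesional and 1 uninvolved biopsy from each. A transgene for interleukin-17C (IL-17C) is carried by all 5 mice, and in 2 of them a gene is also labelled as knocked out, which the title of the series names as interleukin-6 (Il6). The 4 groups are therefore uninvolved and lesional skin of IL-17C+ mice (mice 2237, 2275 and 2296) and uninvolved and lesional skin of IL-17C+KO mice (mice 2392 and 2465). No mouse without the transgene is among the samples. Their age was either 10 or 14 weeks. The sources used here do not say which mouse was which age, nor which promoter drives the transgene, so age and genotype cannot be told apart.

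A hair is built from concentric layers of keratinocytes that arise in the matrix at the base of the follicle. The cells of the shaft (cuticle, cortex) and of the inner root sheath around it fill with keratin filaments, each a pair of a type I and a type II keratin, and each layer uses its own pairs. In the shaft the filaments are embedded in keratin-associated proteins (Krtap), small proteins rich in cysteine or in glycine and tyrosine that crosslink them, and both families are made in follicles that are growing a hair.

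The stretches of DNA before the start sites of these genes are shown because the members share a feature there. RefSeq windows (GRCm38.p6) were matched for 63 of the 75 members. On the gene's own strand, TATAAA began 40 to 20 bases before the start in 36 of these 63 windows (57.1%), against 1.99% of all 32851 windows, members included. The share was 71.4% in the ultrahigh sulphur Krtap genes (10 of 14), 61.1% in the high sulphur ones (11 of 18), 43.8% in the high glycine-tyrosine ones (7 of 16) and 62.5% in the inner root sheath and companion layer keratins (5 of 8). For each layer or class, the member with the highest mean level whose printed bases lie outside its own annotated gene is shown, with Krt75, Krtap19-4 and Krtap4-9, on which results below turn. Each line gives the last 120 bases before the start, 5′ to 3′ on the gene's strand, in lower case, with every TATAAA in capitals.
Krt25 (chr11:99322952-99323071, minus strand): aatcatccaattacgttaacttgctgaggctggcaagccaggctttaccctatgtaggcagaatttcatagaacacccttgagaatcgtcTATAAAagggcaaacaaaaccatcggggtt
Krt32 (chr11:100088270-100088389, minus strand): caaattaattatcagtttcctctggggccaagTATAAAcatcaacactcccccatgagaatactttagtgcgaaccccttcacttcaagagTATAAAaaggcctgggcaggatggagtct
Krt34 (chr11:100041555-100041674, minus strand): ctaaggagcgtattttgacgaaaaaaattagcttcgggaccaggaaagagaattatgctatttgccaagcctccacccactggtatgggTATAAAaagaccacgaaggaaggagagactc
Krt75 (chr15:101573905-101574024, minus strand): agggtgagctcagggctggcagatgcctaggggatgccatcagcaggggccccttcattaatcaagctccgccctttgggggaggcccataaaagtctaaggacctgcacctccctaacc
Krt84 (chr15:101532821-101532940, minus strand): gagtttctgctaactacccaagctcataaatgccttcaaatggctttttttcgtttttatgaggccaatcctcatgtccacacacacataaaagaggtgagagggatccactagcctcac
Krtap8-1 (chr16:89487953-89488072, minus strand): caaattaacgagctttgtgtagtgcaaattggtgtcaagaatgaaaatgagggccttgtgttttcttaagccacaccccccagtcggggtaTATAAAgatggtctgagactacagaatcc
Krtap19-4 (chr16:88885090-88885209, minus strand): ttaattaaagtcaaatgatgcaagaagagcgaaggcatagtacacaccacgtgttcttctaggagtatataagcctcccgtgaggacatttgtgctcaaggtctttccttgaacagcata
Krtap11-1 (chr16:89571184-89571303, minus strand): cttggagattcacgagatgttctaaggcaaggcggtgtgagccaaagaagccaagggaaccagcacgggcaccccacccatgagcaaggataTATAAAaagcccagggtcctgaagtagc
Krtap4-1 (chr11:99628240-99628359, minus strand): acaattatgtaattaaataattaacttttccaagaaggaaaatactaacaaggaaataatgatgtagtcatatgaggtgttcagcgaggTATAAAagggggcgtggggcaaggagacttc
Krtap4-9 (chr11:99785080-99785199, plus strand): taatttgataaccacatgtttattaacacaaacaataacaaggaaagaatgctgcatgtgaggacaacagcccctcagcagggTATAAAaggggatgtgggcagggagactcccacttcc
The keratins Krt75 and Krt84 and the Krtap gene Krtap19-4 hold no TATAAA in these 120 bases, and the other 7 do. Other motifs were searched on both strands of the 250 bases before each start. The LEF/TCF core CTTTGA was in 27.0% of the member windows and in 13.8% of all windows. The GATA motif AGATAA was in 23.8% against 9.99%, and the AP-1 motif TGACTCA in 7.94% against 4.46%. The 2 HOX13 motifs searched, CGTAAA and CAATAAA, were in 3.17% and 0% of the member windows, against 2.61% and 4.20% of all windows. A match of letters is a description of the window and not of a bound site.

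The genes lie in a few tight clusters (GRCm38, the assembly of mm10). On chromosome 11, 22 Krtap genes lie between positions 99550130 and 99993994, and 11 type I keratins lie on both sides of them. On chromosome 15 there are 10 type II keratins between 101459061 and 101802346. On chromosome 16 there are 23 Krtap genes between 88610705 and 89571183, and chromosomes 7 and 10 hold 5 and 3 more. By the composition of the encoded protein the Krtap genes were divided into 16 high glycine-tyrosine, 20 high sulphur and 17 ultrahigh sulphur genes. The high sulphur class is the remainder, with no minimum of cysteine, and holds Krtap15 (4% cysteine) and Krtap7-1 (9.2%). Krtap5-2 and Krtap5-3 fell in the high glycine-tyrosine class although they have 34.6% and 35.1% cysteine. The class names used here therefore follow these cutoffs and not gene families. Of 74 members with an annotated transcript, 55 share at least one stretch of 50 bases with another gene. The shared part was 81.3% of Krtap4-13, 54.3% of Krtap5-1, 44.1% of Krtap10-10 and 43.3% of Krt86, so their counts are uncertain, whereas it was 0% in Krt75, Krt84, Krt32, Krtap8-1, Krtap7-1, Krtap11-1 and Krtap19-4.

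The libraries held 21056850 to 31072491 counts each. A floor of 3 counts, taken for a gene with none, was 0.0965 to 0.142 CPM (counts scaled to a library of 1e+06). The levels given below are also scaled by a normalization factor per library (TMM, 0.919 to 1.07), and this floor is not. The targeted gene went against its label, since Il6 had 4 to 69 counts in the 6 libraries labelled IL-17C+ and 55 to 315 in the 4 labelled IL-17C+KO. Counts over a whole gene cannot show which exons remain, and directions between genotypes rest on the labels. Epidermal, sebaceous, fat and skeletal muscle markers were present in all 10 libraries, as in full-thickness skin. Skeletal muscle genes varied most, with a summed level of 576 CPM (IL-17C+KO lesional, mouse 2465) to 37336 CPM (IL-17C+KO uninvolved, mouse 2465). The labels name 1 animal per pair of biopsies, so each group is 2 or 3 mice.

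The members took very different shares of the libraries, and the difference followed neither skin type nor genotype alone. In uninvolved skin of IL-17C+ mice they held 1.68% of the counts in mouse 2237, 0.383% in mouse 2296 and 0.00857% in mouse 2275 (95% exact binomial interval 0.0082 to 0.00894%). In lesional skin of the same mice they held 1.32% (2237), 0.254% (2296) and 1.75% (2275). Mouse 2275 thus had the lowest uninvolved and the highest lesional share of this genotype. In the libraries labelled IL-17C+KO the share was 0.0121% (2392; interval 0.0117 to 0.0126%) and 0.0109% (2465; 0.0105 to 0.0113%) in uninvolved skin. In their lesional skin it was 0.00578% (2392; 0.00549 to 0.00609%) and 0.456% (2465). In 4 of the 10 libraries, the uninvolved ones of mice 2275, 2392 and 2465 and the lesional one of mouse 2392, levels were low. There 11 to 35 of the 75 members exceeded 1 CPM, against 69 to 74 in the other libraries. More than 3 counts were reached there by 48 to 60 of the 75. These intervals cover counting error only. In a bulk sample, fewer cells of a type and less RNA per cell cannot be told apart.

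**Figure D1:**
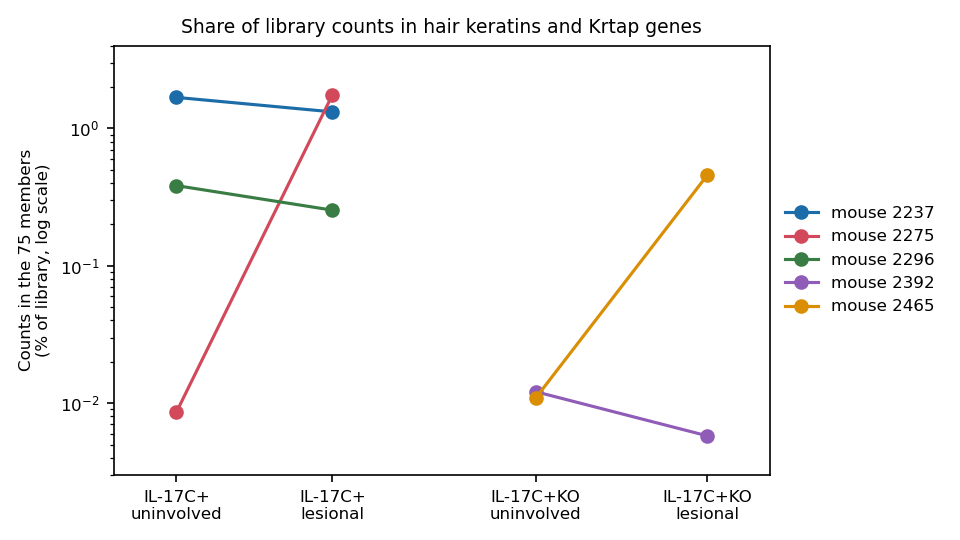
Share of each library's counts that fell on the 75 members (%, log axis) for the 4 groups; each point is 1 library and each line joins the 2 biopsies of a mouse. The line rises in mice 2275 and 2465 and falls in the other 3 mice, of which 2392 stays below 0.0126% in both biopsies.

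The same 4 libraries were the lowest for 73 of the 74 members with enough counts to be tested, and Krt84 was the exception. The transgene had the same 4 lowest libraries, though not the same order among them, with Il17c at 1416, 1901, 535 and 2347 CPM in those 4 libraries (in the order given above) and at 5396 to 15175 CPM in the other 6. Skeletal muscle markers summed to 24205 to 37336 CPM in the 3 uninvolved libraries of the 4 and to 3359 CPM in the lesional library of mouse 2392, against 576 to 9838 CPM in the other 6. The part of either in the level of the hair genes was not tested.

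Among the inner root sheath keratins, Krt71, a type II keratin of that layer, had 4120.5 CPM in mouse 2237, 678 in 2296 and 3.94 in 2275 in uninvolved IL-17C+ skin. In lesional skin of these mice it had 2363, 360.2 and 2474 CPM. In the libraries labelled IL-17C+KO it had 10.8 (2392) and 7.98 (2465) CPM in uninvolved and 4.15 and 705 CPM in lesional skin. Within each genotype label, and within each skin type, the 2 groups compared overlapped. Of its type I partners, Krt25 ranged from 2.45 (IL-17C+KO lesional, 2392) to 1774 CPM (IL-17C+ uninvolved, 2237) and Krt27 from 2.39 (IL-17C+ uninvolved, 2275) to 1551 CPM. Krt26, Krt28, Krt72, Krt73 and Krt74, of the same sheath, were lowest in the same 4 libraries.

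Krt75, the keratin of the companion layer between the inner and outer root sheaths, had a much narrower range. It had 330.4, 210.3 and 23.4 CPM in uninvolved IL-17C+ skin (mice 2237, 2296 and 2275) and 282, 134 and 364 CPM in their lesional skin. In the libraries labelled IL-17C+KO it had 13.2 and 34.0 CPM in uninvolved skin and 15.5 and 193 CPM in lesional skin (2392 and 2465). It was therefore well above the floor of 3 counts in all 10 libraries. Krt84, best known from the tongue papillae, varied between 2.61 and 23.1 CPM and stood apart from the rest: the uninvolved library of mouse 2392 had 14.3 CPM, within the 5.61 to 23.1 CPM of the 6 libraries rich in hair keratins.

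In the shaft, Krt35, which is switched on early in the matrix and precortex, had 719, 65.7 and 0.677 CPM in uninvolved IL-17C+ skin (2237, 2296, 2275). In their lesional skin it had 263, 47.5 and 319 CPM. Under the label IL-17C+KO it had 1.12 and 1.23 CPM in uninvolved and 0.49 and 60.5 CPM in lesional skin (2392, 2465). The cuticle keratin Krt32 had 7.09 CPM in the uninvolved library of mouse 2275, where Krt82, also of the cuticle, had 0.159 CPM. The cortical keratin Krt34 had 326, 83.4 and 0.518 CPM in uninvolved IL-17C+ skin and 239.6, 59.3 and 403 CPM in their lesional skin. Under the label IL-17C+KO it had 1.43 and 0.921 CPM in uninvolved and 0.83 and 99.6 CPM in lesional skin. The other cortical keratins Krt31, Krt33a, Krt33b, Krt36, Krt81, Krt83 and Krt86 had the same 4 lowest libraries, and Krt36 had at most 21.6 CPM in any library.

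**Figure D2:**
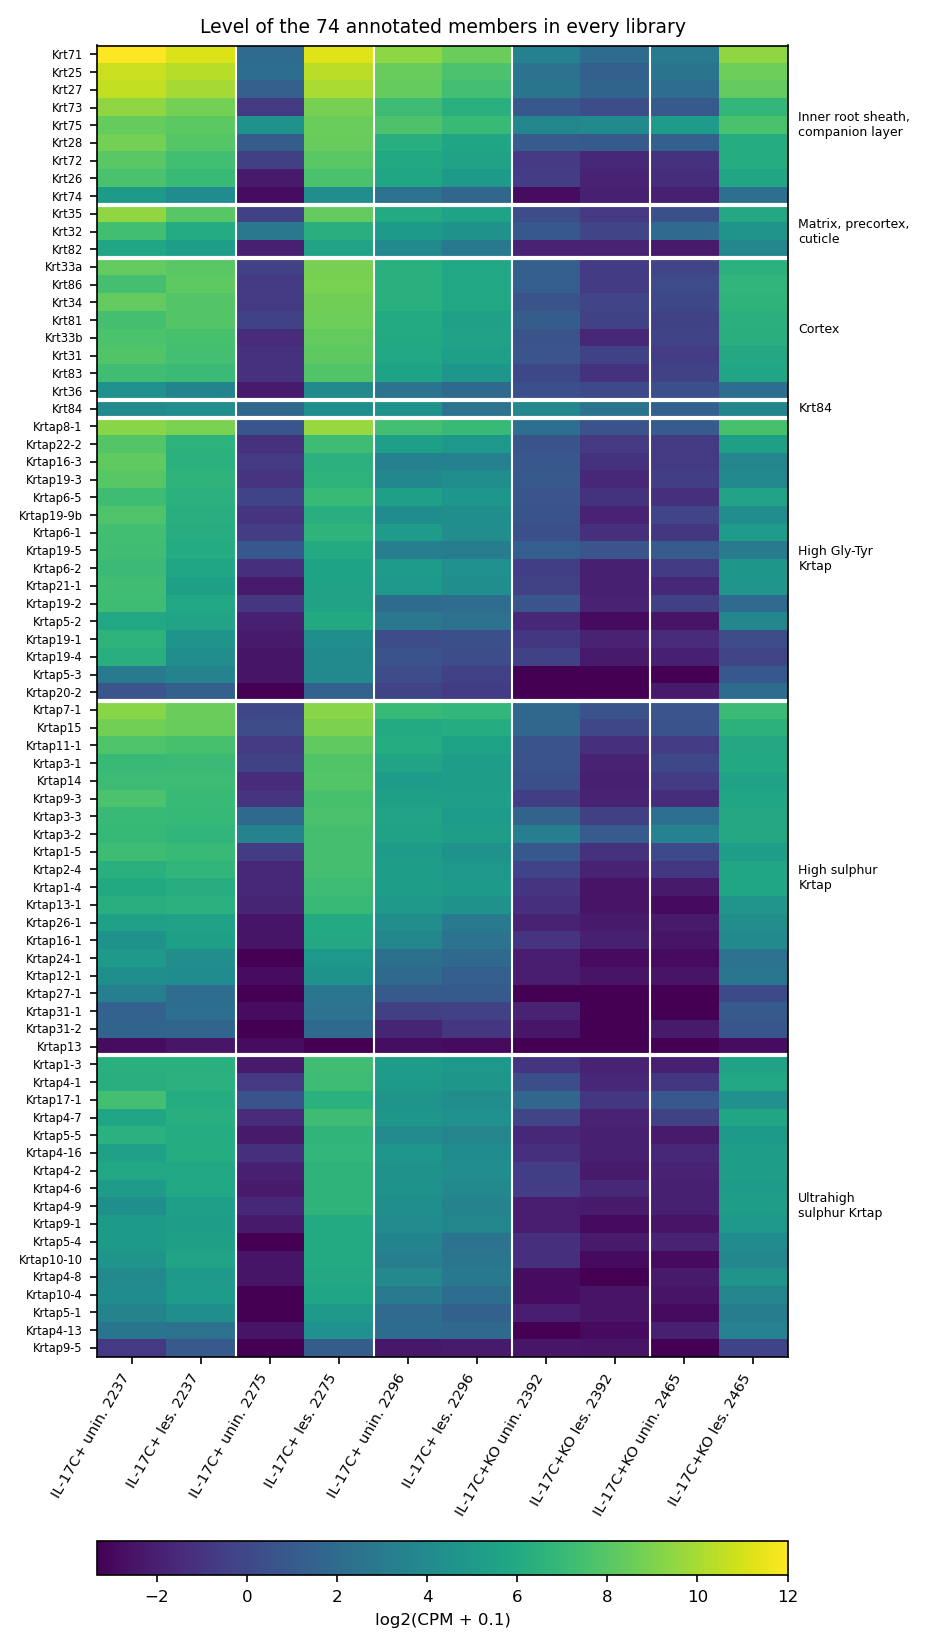
Level of the 74 members with an annotation entry (rows, by layer or class, highest mean first) in the 10 libraries (columns, 2 biopsies of a mouse side by side), as log2(CPM + 0.1). Nearly every row is dark in the uninvolved libraries of mice 2275, 2392 and 2465 and in the lesional library of 2392; Krt75, Krt84 and Krtap3-2 are among those that keep some colour there.

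Per unit of transcript length, a Krtap gene led in most libraries. Krtap8-1, a high glycine-tyrosine protein of 61 residues, had the highest FPKM of all members in 6 libraries, from 9.87 FPKM (IL-17C+KO uninvolved, 2392) to 2043 FPKM (IL-17C+ lesional, 2275). In mouse 2237 uninvolved skin Krt71 led with 1736 FPKM. In the uninvolved libraries of mice 2275 and 2465 the high sulphur gene Krtap3-2 led with 11.6 and 11.1 FPKM, and in the lesional library of 2392 Krtap19-5 led with 5.03 FPKM.

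Among the high glycine-tyrosine genes, Krtap8-1 had 616, 172 and 1.63 CPM in uninvolved IL-17C+ skin (2237, 2296, 2275) and 486, 132 and 816 CPM in their lesional skin. Krtap19-4, of the Krtap19 family on chromosome 16, had 77.9, 1.43 and 0.0797 CPM and 19.3, 1.14 and 15.2 CPM in the same libraries. Under the label IL-17C+KO, Krtap19-4 had 0.671 and 0.154 CPM in uninvolved and 0.113 and 0.803 CPM in lesional skin (2392, 2465). Krtap19-4 was thus near 1 CPM in both libraries of mouse 2296 and in the lesional library of 2465, where Krtap8-1 had 132 (2296 lesional), 172 (2296 uninvolved) and 189.9 CPM (2465 lesional). Krtap19-1 followed the same course, with 96.7 CPM in uninvolved skin of mouse 2237 and 1.11 to 1.22 CPM in those 3 libraries. Krtap19-3, Krtap16-3 and Krtap22-2 reached 242 to 307 CPM in mouse 2237.

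Of the high sulphur genes, Krtap7-1 ranged from 0.876 to 629 CPM, Krtap15 from 0.867 to 516 CPM, Krtap11-1 from 0.339 to 306 CPM and Krtap3-1 from 0.189 to 234 CPM. Krtap13 had 0 to 3 counts per library and was the only member too low to be tested. Of the ultrahigh sulphur genes, whose cysteine content had a median of 37.7%, Krtap4-9 had 20.1, 20.1 and 0.239 CPM in uninvolved IL-17C+ skin (2237, 2296, 2275). In their lesional skin it had 40.3, 11.4 and 98.4 CPM. Under the label IL-17C+KO it had 0.134 and 0.154 CPM in uninvolved and 0.113 and 37.9 CPM in lesional skin (2392, 2465). Unlike Krt71 or Krtap19-4, Krtap4-9 was no higher in uninvolved skin of mouse 2237 than in that of mouse 2296. Krtap1-3, Krtap4-1, Krtap4-7 and Krtap17-1 had 85.4, 82.4, 51.7 and 172 CPM in uninvolved skin of mouse 2237.

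The make-up of the member counts differed as well. Krt75 and Krt84 together made up 31.5% of the member counts in uninvolved skin of mouse 2275 (95% interval 29.5 to 33.5%). They made up 21.3% (19.8 to 22.8%), 33.4% (31.7 to 35.2%) and 38.3% (35.8 to 40.9%) in the uninvolved libraries of 2392 and 2465 and the lesional library of 2392. In the other 6 libraries they made up 1.89 to 5.87%. Krt71 had the opposite pattern, with 4.65 to 8.34% in those 4 libraries and 13.8 to 22.6% in the others. Krtap3-2 made up 3.58 to 13.3% and 0.664 to 1.41%. Among the 6 libraries rich in hair genes, uninvolved skin of mouse 2237 had the largest part in the Krtap19 family with Krtap16-3 (6.93%, against 1.37 to 3.58%) and the smallest in the Krtap4 family (1.70%, against 3.52 to 6.71%).

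**Figure D3:**
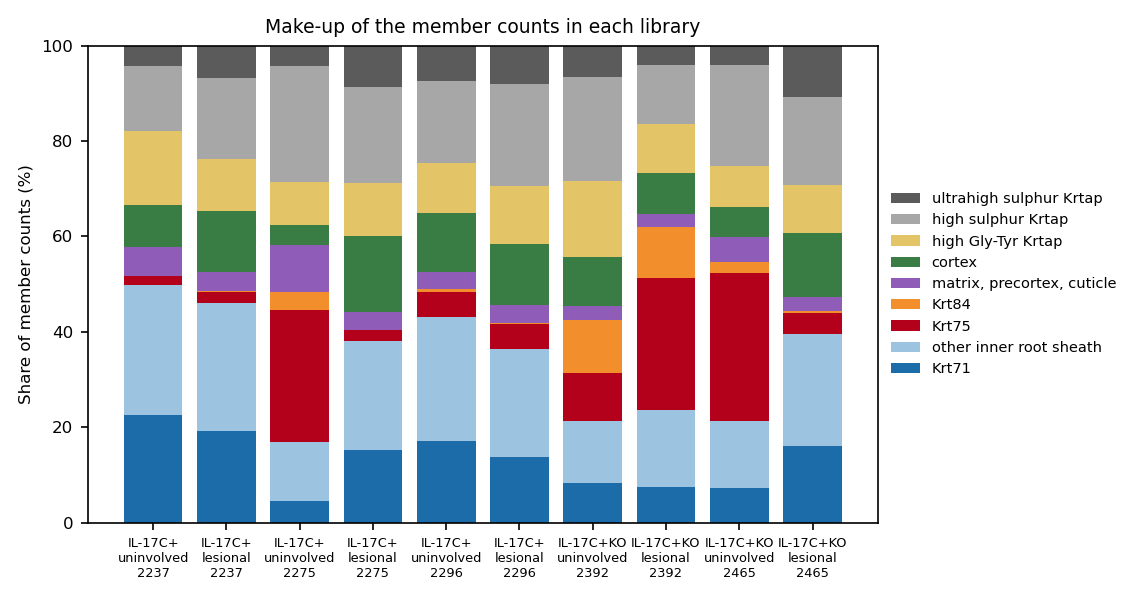
Make-up of the counts on the members in each library (% of member counts; bars sum to 100%), with Krt71, Krt75 and Krt84 drawn apart from their layers. Krt75 and Krt84 take 21.3 to 38.3% in the 4 libraries with few member counts and at most 5.87% in the other 6.

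The first comparison sets the lesional against the uninvolved biopsy within each IL-17C+ mouse. The 3 mice did not share a direction. In mouse 2275 all 74 tested members were higher in lesional skin, by a median of 8.40 log2 units (range 2.57 to 9.94). In mouse 2296, 63 of the 74 were lower (median -0.48), and in mouse 2237, 49 were lower (median -0.24). The medians of the layers and classes in mouse 2275 were 9.33 for cortical keratins, 8.59 for inner root sheath and companion layer keratins, 7.21 for high glycine-tyrosine and 8.60 for ultrahigh sulphur Krtap genes.

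When the pairs were fitted by edgeR (quasi-likelihood, mouse as block), 0 of the 74 members passed a Benjamini-Hochberg false discovery rate (FDR) of 0.05 (0.0% of all 16083 genes), and 0 passed in the DESeq2 fit. An unadjusted p under 0.05 was reached by 0 members with either tool, and by 6.41% of all genes with edgeR (3.54% higher, 2.87% lower). The median fitted change was 1.16, with all 74 positive, against -0.02 over all genes. Without mouse 2275 it was -0.41, and 60 of the 74 changed sign. The spread of the per-mouse medians was 5.06 log2 units (SD, 3 mice), several times the fitted median. The members with the smallest p were Krtap9-5, an ultrahigh sulphur gene, and Krtap31-2, a high sulphur gene. Their log2 changes (± SE of the fit to all 10 libraries, 3 mice) were 2.76 ± 1.37 (edgeR adjusted p = 0.795) and 2.00 ± 1.54 (edgeR adjusted p = 0.832). Both genes were low, with at most 2.18 and 3.73 CPM in any library. Together with Krtap31-1 they were the only members higher in lesional skin of all 3 mice (3 of 74, where 12.2% of all genes were).

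Within mouse 2237, whose biopsies were both rich in hair genes, the classes parted. All 6 Krtap19 genes and Krtap16-3 were lower in lesional skin (median -1.49, range -2.01 to -1.14), and 14 of 16 high glycine-tyrosine genes were lower (median -1.34). The matrix and cuticle keratins were lower, with a difference of -1.45 for Krt35 and -1.27 for Krt32. In contrast 12 of 17 ultrahigh sulphur genes were higher (median 0.67), among them Krtap10-4 by 1.06. In mouse 2296 the medians were -0.35 for high glycine-tyrosine and -0.44 for ultrahigh sulphur genes. There the Krtap19 genes with Krtap16-3 went the other way, with 5 of 7 higher in lesional skin (median 0.09), while 8 of 8 Krtap4 genes were lower (median -0.49). These are single pairs of biopsies with no replicate of their own.

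**Figure D4:**
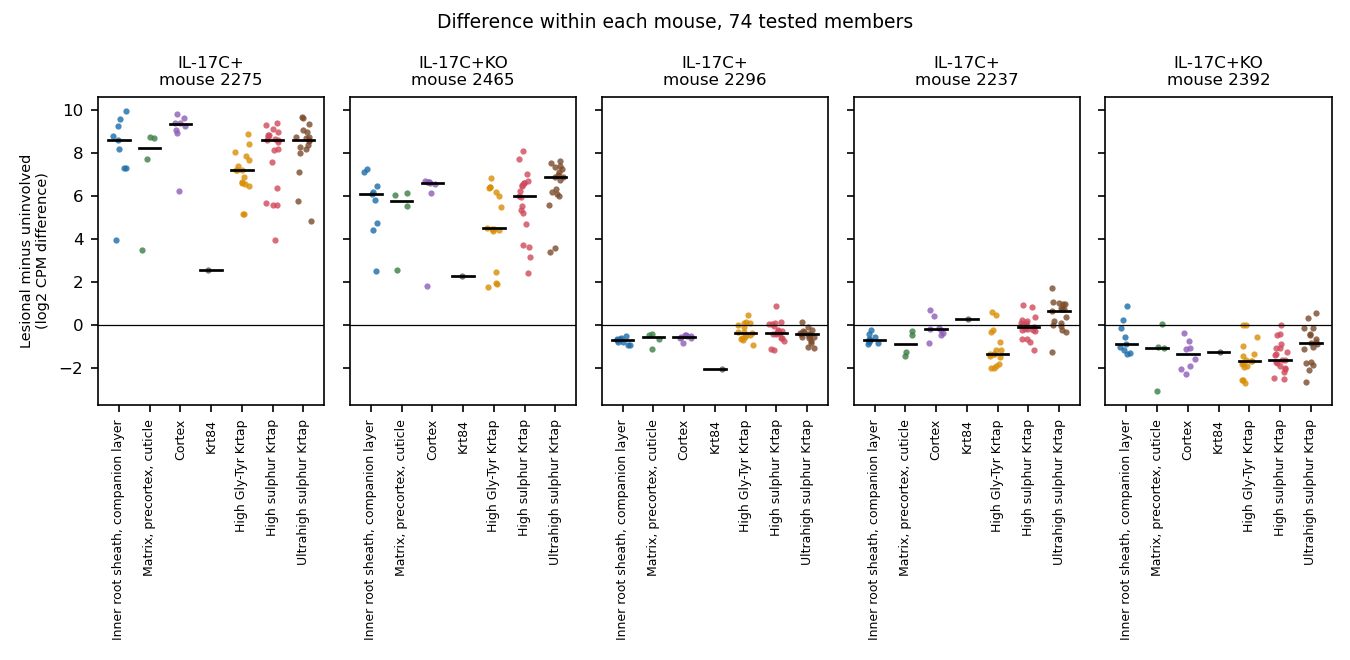
Lesional minus uninvolved difference (log2 CPM) of the 74 tested members in each mouse, by layer or class; each point is 1 gene and the bar is the median of its group. All points lie above 0 in mice 2275 and 2465, and most lie below 0 in mice 2296, 2237 and 2392, with the ultrahigh sulphur genes of mouse 2237 above 0 at the median.

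The second comparison makes the same contrast in the mice labelled IL-17C+KO, and these 2 mice went opposite ways. In mouse 2465 all 74 members were higher in lesional skin (median 6.13, range 1.78 to 8.10). In mouse 2392, 66 of the 74 were lower (median -1.26) and 5 were higher. Krtap10-4, Krtap4-13, Krt74, Krt75 and Krt82 were the 5 higher in both mice (33.3% of all genes were). In mouse 2392 most of these rested on very few counts (uninvolved, then lesional). They were 1 and 2 for Krtap10-4, 0 and 1 for Krtap4-13, 1 and 4 for Krt74 and 4 and 5 for Krt82. Krt75 had 295 and 411. The lower members were low as well, since 51 of the 75 had more than 3 counts in that lesional library. In mouse 2465 the Krtap19 family with Krtap16-3 had a smaller median difference than every layer or class except Krt84 (2.45, against 2.28 for Krt84, 4.50 for all high glycine-tyrosine genes, 6.61 for cortical keratins and 6.87 for ultrahigh sulphur genes).

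Of the 74 members, 0 passed the FDR of 0.05 with edgeR (0.0124% of all genes, 0.00622% in each direction) or with DESeq2. An unadjusted p under 0.05 was reached by 0 members with edgeR, by 1 with DESeq2, and by 13.5% of all genes with edgeR (6.16% higher, 7.31% lower). Without mouse 2275 it was reached by 11 members and by 2049 of 15967 genes. The median fitted change was 2.68 (0.00 over all genes), and -1.64 without mouse 2465 and 6.50 without mouse 2392. The smallest p belonged to Krtap4-13 (6.06 ± 2.69, SE of the fit to all 10 libraries, 2 mice, edgeR adjusted p = 0.399). Most of its sequence is shared with other genes, and its difference was 5.60 in mouse 2465 and 0.56 in mouse 2392. Krtap20-2, a high glycine-tyrosine gene, came next (5.03 ± 2.40; edgeR adjusted p = 0.447). The fitted change of Krtap4-13 ranged from 3.11 to 6.14 when single mice were left out. Krtap20-2 had 0 counts in both libraries of mouse 2392.

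The difference of the lesional effects between the genotype labels was tested in the same fit. With edgeR 0 of the 74 members passed the FDR (0.0% of genes), and 0 passed with DESeq2. An unadjusted p under 0.05 was reached by 0 members with either tool and by 1.17% of genes with edgeR (0.572% higher, 0.597% lower). Without mouse 2275 it was reached by 10 members and by 464 of 15967 genes. The median difference, IL-17C+KO minus IL-17C+, was 1.78 and took both signs when single mice were left out, from -2.74 (without 2465) to 5.35 (without 2392). The smallest p again belonged to Krtap4-13 (4.70 ± 3.04, SE, 5 mice; edgeR adjusted p = 1) and Krtap20-2 (3.57 ± 2.66; edgeR adjusted p = 1).

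In lesional skin, the libraries labelled IL-17C+KO were compared with those of IL-17C+ mice (2 against 3 mice). The values lay lower for 73 of 74 members, with a median log2 difference of -2.17 (0.01 over all genes), and the Krtap19 family lay lowest. Krtap19-4, with the per-library levels given above, had a log2 difference of -4.69 ± 1.50 (SE; edgeR adjusted p = 0.588). Krtap19-1 had -4.54 ± 1.52 (edgeR adjusted p = 0.608). The groups nearly met in Krtap19-4, at 1.14 CPM in mouse 2296 of the IL-17C+ group and 0.803 CPM in mouse 2465 of the other. No member passed the FDR of 0.05 with edgeR (0.0% of 15691 genes). At an unadjusted p under 0.05, 4 of 74 were lower and 0 higher (Krtap19-1, Krtap19-2, Krtap19-4 and Krtap19-5), where 2.53% of all genes were lower, 4.77% higher and 7.3% passed in either direction. DESeq2 called Krtap19-1, Krtap19-4 and Krtap19-5 at its FDR of 0.05 (3 of 74, with 1.36% of all genes called).

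For 7 members the 2 groups of lesional libraries did not overlap (13.2% of all genes were lower without overlap). They were Krtap19-1, Krtap19-2, Krtap19-3, Krtap19-4, Krtap19-5 and Krtap19-9b of the Krtap19 family, and Krtap27-1. For the other 67 members the groups overlapped, which here is the same as mouse 2465 lying above mouse 2296. Krtap4-1 showed this: its lesional level was 57.1 CPM in mouse 2465, between the 27.2 CPM of mouse 2296 and the 88.6 CPM of mouse 2237. Without mouse 2465 the median was -8.41 and 72 of 74 members had an unadjusted p under 0.05 (9.05% of genes), with 0 at the FDR, and without mouse 2392 the median was -1.19 and 0 members had one (9.89%). Both fits set 1 library labelled IL-17C+KO against 3, so that lone library is assumed to vary like the IL-17C+ group.

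In uninvolved skin the differences between the labels were larger. All 72 tested members lay lower in the libraries labelled IL-17C+KO, with a median log2 difference of -6.39 (-0.01 over all genes). Krt71 had 10.8 and 7.98 CPM against 4120.5, 678 and 3.94 CPM, a log2 difference of -7.42 ± 2.75 (SE, 2 against 3 mice; edgeR adjusted p = 0.849). Within the IL-17C+ group mouse 2275 lay below both libraries labelled IL-17C+KO. Krtap4-9 (-6.49 ± 1.97) and Krtap4-8 (-6.86 ± 2.22) had the smallest p, with an edgeR adjusted p of 0.849 for both. Krt84 differed least, by -0.70 ± 0.93.

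No member passed the FDR of 0.05 with edgeR (0.0% of 15568 genes). At an unadjusted p under 0.05, 58 of 72 were lower and 0 higher, where 1.82% of all genes were lower, 1.91% higher and 3.73% passed in either direction. Of the keratins these were 9 of 9 of the inner root sheath and companion layer, 4 of 4 of the matrix, precortex and cuticle and 7 of 8 cortical ones. Of the Krtap genes they were 16 of 18 high sulphur, 14 of 16 ultrahigh sulphur and 8 of 16 high glycine-tyrosine genes. Among the 6 Krtap19 genes and Krtap16-3 there were 0. The count of 58 depended on the test: it was 67 with DESeq2 (5.68% of genes), 0 with limma-voom (3.01% of genes), 1 with limma on FPKM (2.24%) and 9 without the filter on low counts (3.08%). It also depended on single mice. Without mouse 2275, 60 of 72 members passed the FDR itself (1.57% of genes) and 68 had an unadjusted p under 0.05 (15.8%). Without 2465 or 2392 there were 0 (0.54% and 2.13% of genes), in fits that leave 1 library labelled IL-17C+KO and assume that it varies like the IL-17C+ group. Without 2237 or 2296 an unadjusted p under 0.05 was reached by 2 of the 48 members still tested (2.12% and 1.76%).

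For 6 of the 72 members the libraries labelled IL-17C+KO lay below all 3 IL-17C+ libraries, mouse 2275 included (10.6% of all genes did). These were Krt32, Krt72, Krtap3-2, Krtap4-9, Krtap4-16 and Krtap5-3. In Krt32 the values were 1.79 and 4.03 CPM against 166, 32.0 and 7.09 CPM. DESeq2 called Krt32 as the only member (log2 difference -4.56 ± 1.02, DESeq2 adjusted p = 0.0135; 0.0707% of all genes were called). In Krtap4-9 the separation from mouse 2275 was 0.154 against 0.239 CPM, a difference of a few counts. Few counts also separated Krtap4-16 (7 and 6 against 8 in mouse 2275), Krtap5-3 (0 and 0 against 2) and Krt72 (11 and 10 against 16). Krtap3-2 had 11.1 CPM in mouse 2465 against 11.3 CPM in mouse 2275.

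**Figure D5:**
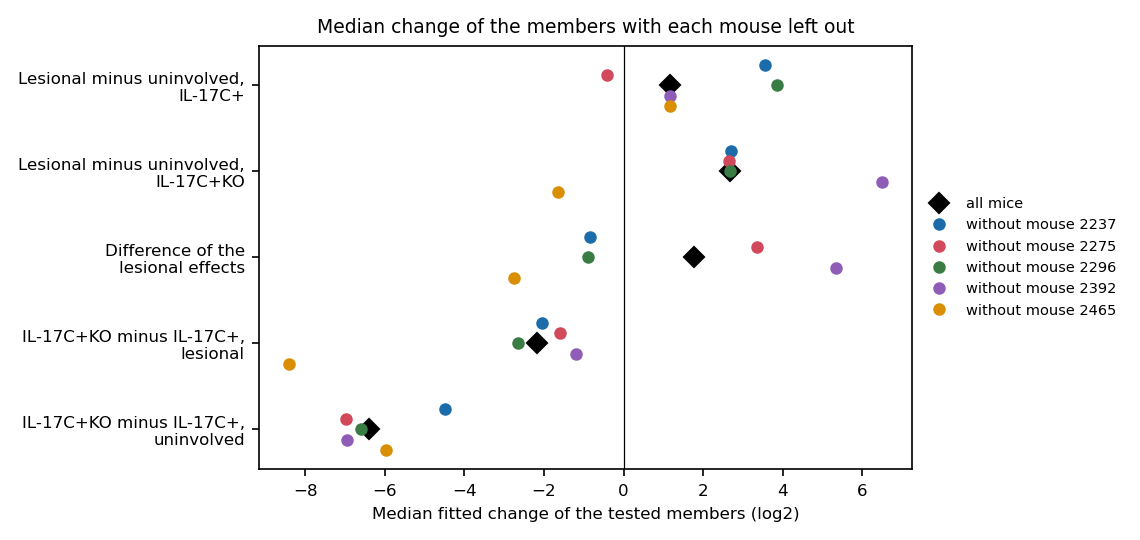
Median fitted log2 change of the tested members in the 5 comparisons with all mice (diamonds) and with each mouse left out (circles). The first 3 comparisons take both signs, and the 2 comparisons between genotype labels stay below 0, from -8.41 to -1.19 in lesional and from -6.98 to -4.50 in uninvolved skin.

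Other genes of the hair follicle were listed by role. Of 25 regulators of the shaft and inner root sheath (transcription factors and signals), 0 passed the FDR with edgeR in the IL-17C+ pairs. At an unadjusted p under 0.05, 2 were higher and 0 lower (3.54% and 2.87% of all genes). These were Trps1 (0.88 ± 0.33, edgeR adjusted p = 0.752) and Runx1 (1.12 ± 0.45, edgeR adjusted p = 0.771), with Bmp4 next (-0.63 ± 0.30, edgeR adjusted p = 0.789). In the IL-17C+KO pairs 1 was higher and 5 were lower at that p (6.16% and 7.31% of all genes), with a median of -0.05. The median difference of the list was 1.11 log2 units in mouse 2275, 0.54 in 2237 and 2465, -0.38 in 2296 and -0.64 in 2392. Hoxc13, a transcription factor that drives hair keratin genes, was named here after its values were seen. Its level was 2.34 to 5.70 CPM in the 4 libraries with few member counts and 16.4 to 58.6 CPM in the other 6. Not all regulators had this split, and by summed level the list did not have these 4 libraries lowest. Gata3 was highest in uninvolved skin of mouse 2275 (123 CPM). Hr had 364 CPM there and 128 CPM in uninvolved skin of mouse 2237. Between the labels, 6 of the 25 regulators were lower in lesional and 4 in uninvolved skin of the libraries labelled IL-17C+KO at an unadjusted p under 0.05 (2.53% and 1.82% of all genes).

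Of 19 structural partners of the members, 1 was higher and 0 lower at an unadjusted p under 0.05 in the IL-17C+ pairs (3.54% and 2.87% of all genes). The higher one was Krt17 of the outer root sheath (1.10 ± 0.44, edgeR adjusted p = 0.768). Krt79 (0.64 ± 0.41) and Tgm3 (0.74 ± 0.47) came next, both with an edgeR adjusted p of 0.813. The median differences of the 19 partners per mouse were 5.10 (2275), 3.46 (2465), -0.49 (2296), -0.21 (2237) and -0.53 (2392). These had the sign of those of the members. Krt17 itself was higher in lesional skin of every mouse, by 1.42 (2275), 0.94 (2296), 0.94 (2237), 2.26 (2465) and 0.41 (2392). The list includes the hair keratins Krt39 and Krt40, which the name rule omits, so it is partly of the same gene family. Trichohyalin (Tchh), the granule protein of the inner root sheath, was chosen after its values were seen. It had 6.09 to 12.2 CPM in the 4 libraries with few member counts and 154 to 1995 CPM in the other 6. In uninvolved skin 9 of 18 partners, and in lesional skin 3 of 19, were lower under the label IL-17C+KO at an unadjusted p under 0.05 (1.82% and 2.53% of all genes), and 0 passed the FDR. In the IL-17C+KO pairs 0 of 19 reached that p.

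Hair pigment genes, which act in the melanocytes of growing follicles, had the same 4 lowest libraries by their summed level, with 74.9 to 129 CPM there and 189 to 1356 CPM in the other 6. Of the 10 lists, this held for 2, the pigment genes and the structural partners. In the IL-17C+ pairs 0 of 10 pigment genes had an unadjusted p under 0.05, with Mitf (-0.27 ± 0.25), Slc24a5 (0.95 ± 0.97) and Tyrp1 (0.64 ± 0.66) first. Of 10 bulge and resting follicle genes there were 0 as well, with Krt15 (-0.61 ± 0.36), Sox9 (0.77 ± 0.51) and Tcf7l1 (0.40 ± 0.33) first. Krt15, a keratin of bulge stem cells, was highest in the uninvolved libraries of mice 2275 and 2465 (1067 and 833 CPM) and had 131 to 421 CPM in the others.

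Genes of other skin compartments were listed too, and with edgeR 0 of them passed the FDR in the IL-17C+ pairs. Over all genes, 3.54% were higher and 2.87% lower in these pairs at an unadjusted p under 0.05. An unadjusted p under 0.05 was reached by 0 of the 7 interfollicular epidermal genes in the table (Krt14, Lor and Krt1 first), 0 of 7 sebaceous genes (Scd3, Awat1, Awat2) and 0 of 6 adipocyte genes (Cfd, Adipoq, Fabp4). Of 7 skeletal muscle genes, 4 were lower (Mylpf with a log2 change of -1.97 ± 0.62, then Mb and Acta1). Of 7 neutrophil genes, 5 were higher (Clec4d by 3.55 ± 0.75, then Fpr2 and Trem1). Of 3 wound keratins, 2 were higher (Krt6b by 3.25 ± 0.84 and Krt6a by 2.50 ± 0.68, with Krt16 next). The wound keratins were higher in lesional skin of all 5 mice (medians 1.90 to 5.24), including the 3 mice in which most hair keratins were lower. Skeletal muscle genes were lower at the median in all 5 (-5.92 to -0.34). In the IL-17C+KO pairs 3 of 3 wound keratins and 7 of 7 neutrophil genes were higher at an unadjusted p under 0.05 (6.16% of all genes). Lower at that p were 6 of 7 skeletal muscle, 2 of 7 interfollicular and 2 of 10 bulge genes (7.31% of all genes).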

How the data were processed

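RNA was sequenced on an Illumina Genome Analyzer IIx. Per the submitters' processing notes, the authors used cutadapt 1.6, TopHat2 2.0.12, HTSeq and Cufflinks 2.2.1 with mm10. The deposited tables give, per the file headers, a read count and an FPKM value for each gene symbol in each library, and no multi-mapping or strand setting is given in the sources used here. Depth was 21056850 to 31072491 counts per library, and intervals cover counting error only.

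Counts were tested with edgeR 4.0.16 in R 4.3.3 (filterByExpr, TMM, robust quasi-likelihood fit, Benjamini-Hochberg over all tested genes, FDR 0.05). For the pairs 1 model held all 10 libraries, with a term for each mouse and a separate lesional effect for each genotype label. The labels were compared within a skin type over 5 libraries. For edgeR, the SE of a log2 change is its size over the square root of the F statistic. In the paired fits it rests on all 10 libraries and is not the spread of the mice named beside it. The pairing comes from the design, with both biopsies taken from each mouse. The deviations of the 2 biopsies from their group means correlated between -0.136 and 0.0287 over 15019 genes. Over the members among these the correlation was 0.441 (2237), 0.370 (2296), -0.0962 (2275) and -0.0551 (2392 and 2465). In a group of 2 mice the deviations mirror each other, so mice 2392 and 2465 share 1 value. CPM are counts over the library total. Differences within a mouse are on the log2 CPM scale (prior count 2). The fits were run on simulated counts in which 200 genes were changed by known folds, with a common spread and no effect of the mouse. The real data are less even, with an SD of 5.06 log2 units between the member medians of the IL-17C+ mice. The simulation therefore cannot tell how the fits perform for the members. Alternatives were DESeq2 1.42.0 (test and size factors), scaling without the members, no low-count filter, limma 3.58.1 (voom, and on log2(FPKM + 0.1) for genes at 1 FPKM in 2 libraries), no block, only 1 genotype and each mouse left out. No fit dropped or imputed a library otherwise.

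Of the keratin members all were eligible for naming, with the 4 highest Krtap genes per class by mean CPM, the 2 smallest p per comparison, members past the FDR, and the 3 smallest p of each other list. Members and lists were chosen with earlier results of these data known. Members were matched by symbol to RefSeq (GRCm38.p6) and GENCODE M21 for 74 of 75, and 1 is counted but not reported by name. Krtap classes were set from translated GENCODE coding sequences. Glycine plus tyrosine of at least 35% made a gene high glycine-tyrosine, otherwise cysteine of at least 30% made it ultrahigh sulphur. All others were called high sulphur.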

Additional observations from a re-analysis of the deposited data

How the results depend on the processing

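With 2 or 3 mice per label, single mice set the medians. With each mouse left out in turn, the median log2 change ranged from -0.41 (without 2275) to 3.85 in the IL-17C+ pairs, from -1.64 (without 2465) to 6.50 in the IL-17C+KO pairs, and from -2.74 (without 2465) to 5.35 for their difference, where it was also -0.90 without 2296 and -0.85 without 2237. Between the labels it ranged from -8.41 to -1.19 in lesional and from -6.98 to -4.50 in uninvolved skin. The difference of the lesional effects for Krtap20-2 ranged from -1.46 to 4.90. With limma on FPKM the median of that difference was -0.0039, the cause was not tested. In uninvolved skin the members past the FDR ranged from 0 to 60 with a mouse left out, and DESeq2 called 1 there and 3 in lesional skin. Over all genes DESeq2 called 247 in the IL-17C+ pairs, 1157 in the IL-17C+KO pairs and 6 for their difference, against 0, 2 and 0 with edgeR. Without the replicate block 0 members passed in the 3 paired comparisons, the medians were 0.86, 4.93 and 4.07, and 8 members of the IL-17C+KO pairs had an unadjusted p under 0.05, as did 2704 of 16083 genes. By FPKM the member share was 2.62% in lesional skin of mouse 2275, 0.0189% in uninvolved skin of mouse 2392 and 0.0136% in that of mouse 2465. Scaling by DESeq2 size factors or without the members changed the sign of 0 members in each of the 5 comparisons.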
